A study of Solanum lycopersicum with 8 samples.

Results

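The 8 genes described here are the B, C and D class MADS-box genes of tomato, the transcription factor genes that set the identity of petals, stamens, carpels and ovules. They were chosen by gene ID, before the version dot, and all 8 were found among the 34109 genes of the expression table: 4 of B class, 2 of C class and 2 of D class. RNA came from proliferating inflorescence meristems, dissected under a stereoscope from 8-week-old plants of 2 double mutants. The *plt3* *plt7* plants carry CRISPR–Cas9 mutations, made in the cultivar M82, in both *PLETHORA* (AP2-type transcription factor) paralogues. The *ej2* *j2* plants, from existing stocks, carry mutations in both *SEPALLATA* (MADS-box) paralogues. Each genotype has 4 libraries, no WT library was used here, and the labels name no alleles and do not tie libraries to single plants. In both mutants meristems overproliferate where an inflorescence would form. Values are TPM, in which reads are divided by transcript length and each library is scaled to a sum of 1000000. TPM therefore compares levels between genes, but it keeps no read numbers, the depth is unknown, and a gene without signal is described as listed at 0.

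In the ABC model, B class proteins specify petals and, together with C class proteins, stamens, while C class proteins alone specify carpels and D class proteins specify ovules. B class proteins of the DEFICIENS type (*TAP3*, *TM6*) work as heterodimers with those of the PISTILLATA type, and all of these proteins assemble into larger complexes with SEPALLATA proteins, the class to which EJ2 and J2 belong. In *Arabidopsis* the B and C genes come on in young floral meristems once LEAFY has been induced, and UNUSUAL FLORAL ORGANS, with LEAFY, switches on the DEFICIENS-type gene *APETALA3*. The tomato orthologues of *LEAFY* and *UNUSUAL FLORAL ORGANS* are *FA* and *AN*.

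The names of the members are those that came with their IDs. RefSeq genes of assembly SLM_r2.1 carry no IDs of this kind, so names could be checked only by chromosome. A symbol or synonym for 6 of the 8 lies on the chromosome of the ID. For the PISTILLATA-type pair the table goes against the names given: it has *TPI* on chromosome 6, whereas that name came with Solyc08g067230, on chromosome 8, and *TPIB* came with Solyc06g059970, on chromosome 6. These 2 genes are therefore called by their IDs.

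Over all genes, replicates 1 and 2 of *ej2* *j2* were the least alike within a genotype (Spearman's rho 0.638 across genes), and replicate 1 had the most genes above 0 in that library alone, 459. Replicate 2, which carries much of the signal of the members other than *TM6*, had the fewest genes above 0 of all 8 (21397, against 21479 to 22295 in *plt3* *plt7* and 22310 to 22792 in the other *ej2* *j2* libraries), and its 10 highest genes held the largest share of TPM, 10.7%, followed by 9.16% in replicate 1. Results that rest on replicate 2 are given with and without it, or are said not to have been computed without it.

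Of the 8 genes, *TM6* alone was well expressed, and it was so in every library of both genotypes. All other members were below 1 TPM in every *plt3* *plt7* library and, outside replicate 2, in every *ej2* *j2* library. *TM6* (Solyc02g084630), the DEFICIENS-type gene of the ancestral lineage, had 94.2, 96.0, 50.9 and 18.1 TPM in *plt3* *plt7* replicates 1 to 4, and at 22.3, 87.6, 105 and 55.6 TPM in *ej2* *j2* replicates 1 to 4. The ranges overlapped over nearly their whole length, and each genotype had 1 library well below its other 3. The means were 64.8 ± 37.5 TPM in *plt3* *plt7* and 67.7 ± 36.7 TPM in *ej2* *j2* (SD, n = 4 each). In mean log2(TPM + 1), the scale of all differences given here, *plt3* *plt7* minus *ej2* *j2* was -0.11 (standard error 0.91, 95% interval -1.89 to 1.67, adjusted p = 0.981, limma, and p = 0.771 in an exact two-sided permutation test). The interval leaves room for a difference of more than 1 on the log2 scale in either direction, so the genotypes are not shown to have equal levels. The sign of the estimate turned with single libraries: it was 0.40 without *plt3* *plt7* replicate 4, and 0.08 and 0.17 without *ej2* *j2* replicates 2 and 3.

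Within a genotype *TM6* varied several fold. The highest library exceeded the lowest 5.31 times in *plt3* *plt7* and 4.74 times in *ej2* *j2*. This spread was ordinary for these libraries: the residual SD of *TM6* was 1.04 on the log2 scale, against a median of 1.10 over the 19544 genes tested (those with a mean of at least 1 TPM). At these levels between 74.6% and 93.1% of all genes in the table were at or below *TM6* in the *plt3* *plt7* libraries, and between 77.4% and 94.1% in the *ej2* *j2* libraries. These shares count genes listed at 0 as below *TM6*. In *plt3* *plt7* replicate 4 it ranked 8654 from the top, with 21563 genes above 0. In *ej2* *j2* replicate 1 it ranked 7720, with 22792 genes above 0.

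**Figure D1:**
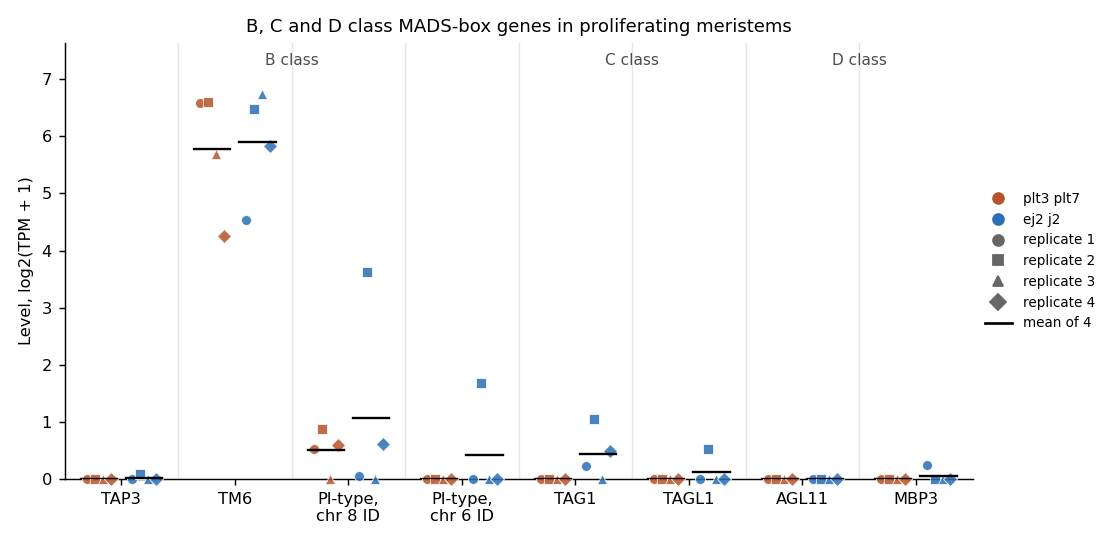
Level of each of the 8 genes as log2(TPM + 1) in the 4 *plt3* *plt7* libraries (left in each column) and the 4 *ej2* *j2* libraries (right), with a symbol for each replicate and a line at the mean. *TM6* stands between 18.1 and 105 TPM in all 8 libraries, and every other point above 1 TPM belongs to *ej2* *j2* replicate 2. The PI-type genes are Solyc08g067230 (chr 8) and Solyc06g059970 (chr 6).

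The other DEFICIENS-type gene, *TAP3* (Solyc04g081000), is the tomato counterpart of *APETALA3* and *DEFICIENS*. It was listed at 0 in all 4 *plt3* *plt7* libraries and in 3 of 4 *ej2* *j2* libraries, with 0.0691 TPM in *ej2* *j2* replicate 2. The libraries thus held transcripts of only 1 of the 2 DEFICIENS-type genes at more than a trace.

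The PISTILLATA-type genes, whose proteins are the partners of TAP3 and TM6, were scarce beside *TM6*. Solyc08g067230 had 0.444, 0.853, 0 and 0.519 TPM in *plt3* *plt7* replicates 1 to 4, and 0.0431, 11.3, 0 and 0.535 TPM in *ej2* *j2* replicates 1 to 4. The groups overlapped, and 1 *ej2* *j2* library lay far above the other 7. Its log2 difference was -0.57 (standard error 0.55, 95% interval -1.65 to 0.51, adjusted p = 0.727, limma, and p = 0.771 in the exact permutation test). Without *ej2* *j2* replicate 2 its mean fell below 1 TPM and it was not tested. Solyc06g059970 was listed at 0 in all 4 *plt3* *plt7* libraries and was at 0, 2.22, 0 and 0 TPM in *ej2* *j2* replicates 1 to 4, so that it had a value only in the library where Solyc08g067230 was highest. The summed TPM of the 2 PISTILLATA-type genes was between 0% and 2.87% of that of *TM6* in the *plt3* *plt7* libraries, and between 0% and 15.5% in the *ej2* *j2* libraries. The upper value again came from replicate 2, and the highest among the other 3 was 0.962%. In *ej2* *j2* replicate 3, the library with the most *TM6* (105 TPM), both PISTILLATA-type genes were listed at 0, and the same held for *plt3* *plt7* replicate 3 at 50.9 TPM of *TM6*.

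The C class genes had values in *ej2* *j2* libraries alone. *TAG1* (Solyc02g071730), the *AGAMOUS* gene needed for stamens, carpels and the end of floral meristem growth, was listed at 0 in all 4 *plt3* *plt7* libraries, and was at 0.179, 1.07, 0 and 0.403 TPM in *ej2* *j2* replicates 1 to 4. Although 3 of 4 *ej2* *j2* libraries lay above every *plt3* *plt7* library, replicate 3 was at 0 as well, so the groups overlapped (exact permutation test, p = 0.143). *TAGL1* (Solyc07g055920), a second *AGAMOUS*-like gene known for its role in fleshy fruit growth and ripening, was listed at 0 in all *plt3* *plt7* libraries and had 0.443 TPM in *ej2* *j2* replicate 2 and 0 in the others.

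The D class genes, which act in ovules and seeds, were at or next to 0 throughout. *AGL11* (Solyc11g028020) was listed at 0 in all 8 libraries. *MBP3* (Solyc06g064840) was listed at 0 in all *plt3* *plt7* libraries and had 0.193 TPM in *ej2* *j2* replicate 1 and 0 in the other 3. *MBP3* is the member whose lone value did not come from *ej2* *j2* replicate 2.

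Of the 8 members 2 passed the filter of a mean of at least 1 TPM, *TM6* and Solyc08g067230 (the second only through the 11.3 TPM of *ej2* *j2* replicate 2, so that its test rests on that selection), and neither was called, against 1.84% of the 19544 genes tested (limma, adjusted p under 0.05 over all genes tested). Neither had an unadjusted p under 0.05. Without a filter on low values, 7 members could be tested, all but *AGL11*, and none was called (adjusted p between 0.383 for *TAG1* and 0.966 for *TM6*, limma). A level near 0 leaves little room on the log2(TPM + 1) scale, so these differences are small whatever the ratio.

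The B genes were set beside the C and D genes by the number of values above 0, with no test. In *plt3* *plt7*, 7 of 16 B class values were above 0, all of them from *TM6* and Solyc08g067230, against 0 of 16 C and D class values. In *ej2* *j2*, 9 of 16 B class values and 5 of 16 C and D class values were above 0. Without *ej2* *j2* replicate 2 these were 5 of 12 and 3 of 12. B class genes made up 100% of the summed TPM of the 8 members in each *plt3* *plt7* library and between 98.4% and 100% in each *ej2* *j2* library, and *TM6* alone held at least 97.2% in every library but *ej2* *j2* replicate 2, where it held 85.3%. The median log2 difference was -0.27 for the 4 B class genes (range -0.57 to -0.02) and -0.10 for the 4 C and D class genes (range -0.44 to 0). Over all genes tested, which include only *TM6* and Solyc08g067230 of the members, it was 0.05. These medians were not computed without *ej2* *j2* replicate 2. Without it *TAP3* and Solyc06g059970 were at 0 in every library and the difference of *TM6* was 0.08, so the negative B class median, and its place below that of C and D, rest on that library.

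Taken by presence, 5 members (*TAP3*, Solyc06g059970, *TAG1*, *TAGL1* and *MBP3*) were at 0 in all 4 *plt3* *plt7* libraries but above 0 in at least 1 *ej2* *j2* library, and no member showed the reverse. Of all 25571 genes above 0 anywhere, 6.86% had this pattern and 3.57% the reverse. These 5 are the members that were above 0 somewhere with a mean under 1 TPM. Among all 6027 genes of that kind the shares were 28.7% for this pattern and 15.1% for the reverse. The count of 5 leaned on 1 library: without *ej2* *j2* replicate 2 it was 2 (*TAG1* and *MBP3*).

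*TAP3*, Solyc06g059970 and *TAGL1* were above 0 in *ej2* *j2* replicate 2 alone, as were 0.602% of the genes above 0 anywhere and 2.56% of those with a mean under 1 TPM. That library held 4 members at 1 TPM or more (*TM6*, Solyc08g067230, Solyc06g059970 and *TAG1*), against 1, *TM6*, in each of the other 7 libraries. The 7 members other than *TM6* summed to at most 0.853 TPM in the *plt3* *plt7* libraries, and to 15.1 TPM in *ej2* *j2* replicate 2 and at most 0.938 TPM in the other *ej2* *j2* libraries. Both D class genes were listed at 0 in replicate 2, so its additional signal was of B and C class.

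**Figure D2:**
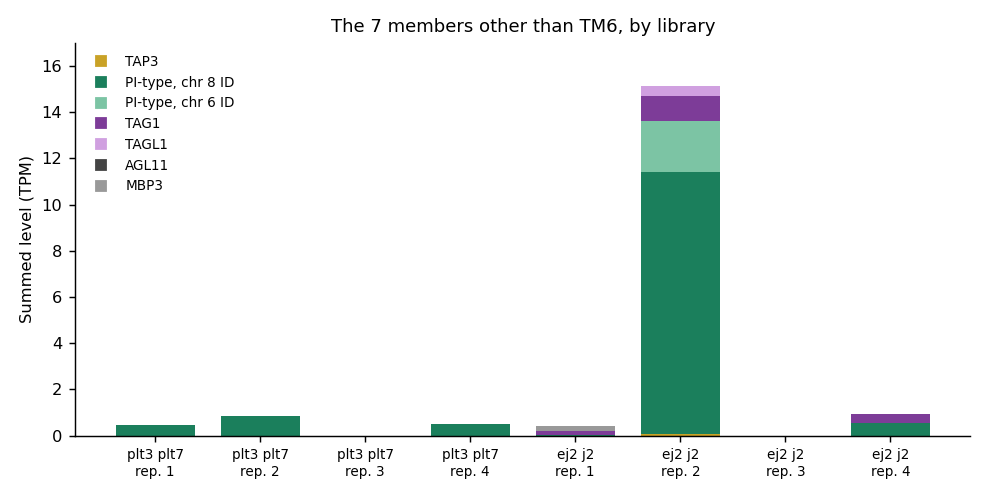
Summed TPM of the 7 members other than *TM6* in each library, stacked by gene, with the *plt3* *plt7* libraries on the left and the *ej2* *j2* libraries on the right. *ej2* *j2* replicate 2 reaches 15.1 TPM, of which Solyc08g067230 (PI-type, chr 8) gives 11.3 TPM, and no other library reaches 1 TPM.

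*ej2* *j2* replicate 2 was the highest library of its genotype for 21.9% of the genes tested, a share that leaves out genes under the filter. Replicate 2 was also the highest for 5 of the 7 members above 0 in *ej2* *j2*, most of them under that filter. The same held for 2 of the 5 genes above 0 there in a list of 8 stamen, carpel and ovule development genes. This list, which holds genes that act after organ identity is set, was low, with a highest value of 3.17 TPM, which is above the 2.22 and 1.07 TPM of Solyc06g059970 and *TAG1* in replicate 2. None of its 8 genes was tested, 3 were listed at 0 in all libraries (among them *HYDRA*, which acts in sporogenesis, and *INO*, of the ovule integument), and their sum was 0 to 1.82 TPM in *plt3* *plt7*, and 0.604 to 4.09 TPM in *ej2* *j2*, where replicate 2 was not the highest. Their part in the values of the members was not tested. In bulk samples more cells of a type and more RNA per cell cannot be told apart.

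The meristem label was checked against 7 meristem and boundary genes, and 5 of them were at 1 TPM or more in all 8 libraries. *TKN2*, a class I KNOX gene of meristem cells, was at 41.7, 252, 574 and 241 TPM in *plt3* *plt7*, and at 79.6, 320, 128 and 70.2 TPM in *ej2* *j2*. *WUS*, of the stem cell organizing centre, was at 7.86, 11.3, 13.4 and 4.39 TPM in *plt3* *plt7*, and at 4.19, 6.79, 39.1 and 269 TPM in *ej2* *j2*. The ranges of both genes overlapped between the genotypes. None of the 7 was called, and the lowest adjusted p was that of *CLV3*, which encodes the stem cell signal peptide (log2 difference -1.74, adjusted p = 0.131, limma). Genes of green tissue, 7 IDs of RuBisCO small subunits and light-harvesting proteins, summed to 392 to 599 TPM in *plt3* *plt7* and to 265 to 600 TPM in *ej2* *j2*, of which 265 TPM in replicate 2. None of the 6 tested was called. Of the 7, 3 were lower in *plt3* *plt7* without overlap, Solyc02g063150 (log2 difference -1.80, adjusted p = 0.349, limma), Solyc03g005780 (-1.79, adjusted p = 0.0781, limma) and Solyc02g085950, which was listed at 0 in all *plt3* *plt7* libraries and not tested. Of all genes tested, 3% had no overlap in this direction and 3.87% in the other. These shares do not cover Solyc02g085950, with a mean of 0.234 TPM. Solyc03g034220, which held the highest value of the list, went the other way, averaging 401 TPM in *plt3* *plt7* and 269 TPM in *ej2* *j2*. Its groups overlapped (log2 difference 0.77, adjusted p = 0.798, limma). Those of Solyc02g070940, Solyc02g070980 and Solyc02g071010 also overlapped, with log2 differences of -0.08, -0.70 and -0.24.

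Among the MADS-box partners of the members there were calls, though no test compared these genes with the members. Of 6 *SEPALLATA* and *AGL6* genes, all tested, 5 were called lower in *plt3* *plt7* and none was called higher, against 0.962% of all genes tested called lower and 0.875% called higher. The 5 averaged at most 0.849 TPM in *plt3* *plt7* and passed the filter only through *ej2* *j2*, and without the filter *EJ2*, *J2*, *TM5* and *TM29* were not called (adjusted p = 0.0609, 0.169, 0.154 and 0.0870, limma). *EJ2* and *J2*, mutated in *ej2* *j2*, were listed at 0 or below 1 TPM in *plt3* *plt7*, with log2 differences of -3.29 and -2.66 (adjusted p = 6.09e-04 and 0.0161, limma). *TM5*, the tomato gene of the *SEPALLATA3* type, was listed at 0 in all *plt3* *plt7* libraries, and was at 13.0, 31.8, 0.701 and 4.25 TPM in *ej2* *j2* replicates 1 to 4 (log2 difference -3.00, standard error 0.64, adjusted p = 0.00177, limma). The groups did not overlap, as was the case for 3% of the genes tested in this direction and 3.87% in the other, and the highest library was replicate 2, as for Solyc08g067230 and *TAG1*. *TM29*, another *SEPALLATA* gene, was at 0.986, 0.412, 1.54 and 0.462 TPM in *plt3* *plt7*, and at 28.2, 9.43, 37.4 and 40.8 TPM in *ej2* *j2* (log2 difference -3.88, standard error 0.80, adjusted p = 0.00101, limma). Here replicate 2 was the lowest of the *ej2* *j2* libraries. *AGL6*, of the clade next to *SEPALLATA*, was listed at 0 in *plt3* *plt7* and had 10.2, 10.8, 26.2 and 12.3 TPM in *ej2* *j2* (log2 difference -3.89, standard error 0.70, adjusted p = 8.97e-05, limma). The remaining *SEPALLATA* ID, Solyc04g005320, was at 16.5, 51.0, 9.91 and 108 TPM in *plt3* *plt7*, and at 42.3, 107, 31.3 and 70.5 TPM in *ej2* *j2*, and did not pass (log2 difference -0.83, 95% interval -2.61 to 0.95, adjusted p = 0.771, limma). Thus in *plt3* *plt7* meristems *TM6* at 18.1 to 96.0 TPM stood beside 1 gene of this group, Solyc04g005320, at 9.91 to 108 TPM and 5 at 1.54 TPM or less.

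**Figure D3:**
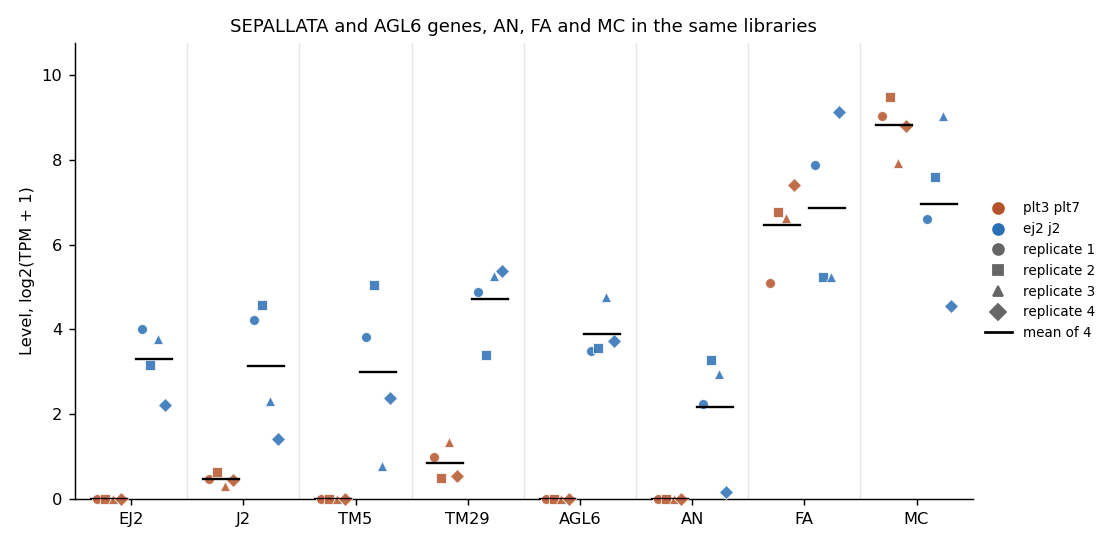
Level as log2(TPM + 1) of *EJ2*, *J2*, *TM5*, *TM29*, *AGL6*, *AN*, *FA* and *MC* in the 4 *plt3* *plt7* libraries (left in each column) and the 4 *ej2* *j2* libraries (right), with a line at the mean. The first 6 genes are below every *ej2* *j2* library in all *plt3* *plt7* libraries, with *EJ2*, *TM5*, *AGL6* and *AN* listed at 0 there, whereas the libraries of *FA* and *MC* overlap.

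Among 5 regulators of floral identity, 1 was called lower in *plt3* *plt7* and none was called higher, against 0.962% and 0.875% of all genes tested. The estimates of all 5 were below 0, from -2.96 to -0.40. *AN*, which encodes an F-box protein and is the counterpart of *UNUSUAL FLORAL ORGANS*, was listed at 0 in all 4 *plt3* *plt7* libraries, and was at 3.70, 8.76, 6.66 and 0.125 TPM in *ej2* *j2* replicates 1 to 4. The groups did not overlap, though the lowest *ej2* *j2* value was near 0, and replicate 2 had the most (log2 difference -2.16, standard error 0.58, adjusted p = 0.0242, limma). *AN* passed the filter only through *ej2* *j2*, and without the filter it was not called (adjusted p = 0.164, limma). *FA*, the counterpart of *LEAFY*, was at 33.0, 108, 97.6 and 167 TPM in *plt3* *plt7*, and at 234, 36.7, 36.3 and 557 TPM in *ej2* *j2*. The groups overlapped (log2 difference -0.40, 95% interval -2.20 to 1.41, adjusted p = 0.915, limma). *S*, a WUSCHEL-type homeobox gene of inflorescence maturation, was at 3.11, 8.80, 3.70 and 51.8 TPM in *plt3* *plt7* and at 64.7, 58.9, 94.7 and 96.3 TPM in *ej2* *j2*, without overlap, but did not pass (log2 difference -2.96, adjusted p = 0.0552, limma). Among 5 tested genes of the *AP1* and *FUL* clade, which act in sepals and in the floral transition, none was called. The highest difference was 1.87 for *MC* (adjusted p = 0.339, limma) and the lowest -0.55 for *FUL2*.

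The exact permutation test gave p = 0.0286, the smallest that 4 libraries against 4 allow, for each of *EJ2*, *J2*, *TM5*, *TM29*, *AGL6* and *AN*. Any gene whose groups do not overlap gets this value, so it adds nothing to the absence of overlap. *S*, Solyc02g063150, Solyc03g005780 and Solyc02g085950, which were not called, had the same p. Leaving out each library in turn kept the calls of *EJ2*, *TM5*, *TM29* and *AGL6*. That of *J2* was lost without *plt3* *plt7* replicates 1 or 4 and without *ej2* *j2* replicates 1 or 2 (adjusted p = 0.0643, 0.0699, 0.0679 and 0.0505, limma). That of *AN* was lost without any of *plt3* *plt7* replicates 1 to 4 (adjusted p = 0.0838, 0.0630, 0.0515 and 0.0883, limma) and without *ej2* *j2* replicates 2 or 3 (adjusted p = 0.0684 and 0.0978, limma). Without a filter on low values only *AGL6* of the 6 passed (adjusted p = 0.0370, limma), and likewise with only *plt3* *plt7* libraries 1 and 3 (adjusted p = 0.0266, limma).

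**Figure D4:**
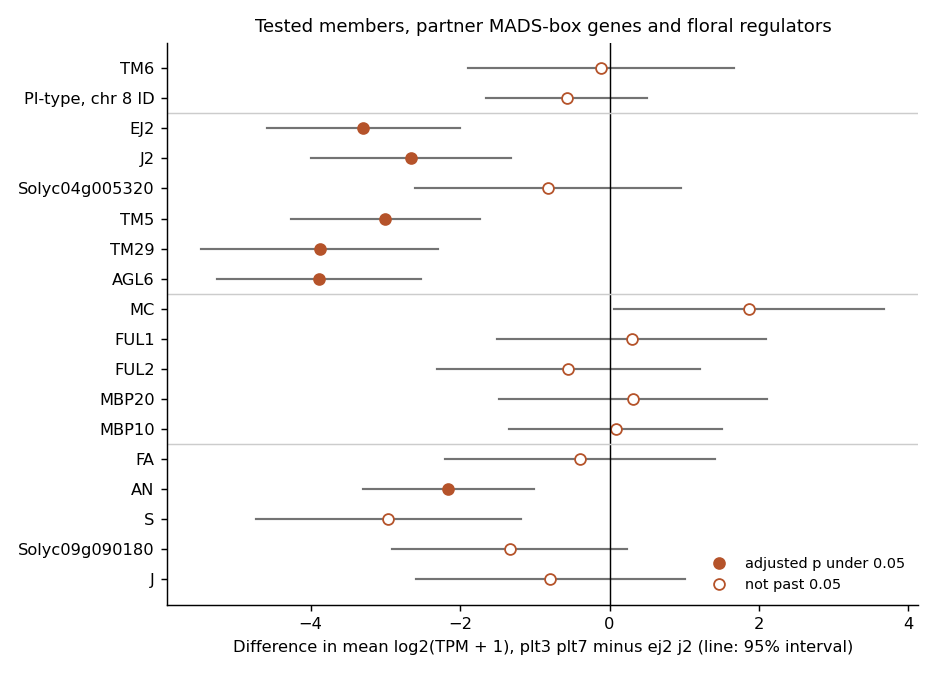
Difference in mean log2(TPM + 1), *plt3* *plt7* minus *ej2* *j2*, with its 95% interval from limma, for the 2 tested members (top), the *SEPALLATA* and *AGL6* genes, the *AP1* and *FUL* clade and the regulators of floral identity. *TM6* (-0.11) and Solyc08g067230 (-0.57) have intervals that include 0, whereas *EJ2*, *J2*, *TM5*, *TM29*, *AGL6* and *AN* (filled points) run from -3.89 to -2.16.

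The genes of these lists whose pattern over the 8 libraries was most like that of the members were found by Pearson's r of log2(TPM + 1), as a description across 8 libraries of 2 genotypes. For the mean of the C and D class members these were *TM5* (r = 0.92), *J2* (r = 0.80) and Solyc03g113530 (r = 0.79), and without *ej2* *j2* replicate 2 the values were 0.95, 0.68 and -0.26. Solyc03g113530, an ID from the stamen, carpel and ovule list, reached at most 0.139 TPM, and its r alone of the 3 turned negative without this library. For the mean of the B class members these were Solyc03g113530 (r = 0.86), the light-harvesting ID Solyc02g071010 (r = 0.68) and *FUL2* (r = 0.58), and without replicate 2 these were 0.24, 0.35 and -0.04. The order of likeness depended on this library: without it the highest r was that of *FUL1* for the B class mean (0.85, against -0.07 with it) and of *CLV3* for the C and D class mean (0.96, against 0.55 with it). The C and D mean itself was 0 in all *plt3* *plt7* libraries and in *ej2* *j2* replicate 3, the library in which *TM5* was lowest of the 4.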

How the data were processed

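RNA of inflorescence meristems from 8-week-old *plt3* *plt7* and *ej2* *j2* plants was sequenced after removal of ribosomal RNA, in 4 libraries of each genotype, which the study describes as independent samples. The authors trimmed reads with Trimmomatic, used STAR 2.6.1 for alignment against SL4.0 tomato cDNA models and deposited TPM computed with R. How strand and reads shared between paralogues were handled is not stated in the sources used here. Of 34109 genes, 8538 were at 0 in every library.

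The 19544 genes averaging 1 TPM or more were analysed as log2(TPM + 1), which understates changes of low genes. The fit used limma 3.58.1 under R 4.3.3, with eBayes moderation that follows mean level. P-values are two-sided, adjusted by Benjamini-Hochberg over all genes tested, with a threshold of 0.05. The script was tested on simulated data, in which most changes smaller than the largest simulated size were not called. limma combined 6 residual with 365 prior degrees of freedom, so standard errors come mainly from genes of similar level. Single genes were also tested by an exact two-sided permutation test of the mean. Tables and figures used Python 3.11.15, pandas 2.3.3, numpy 2.4.6 and matplotlib 3.10.9. TPM gives no depth, so no counting error is given.

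The members and lists were chosen with earlier results of these data known, so lists are described by counts and no list was tested. Named genes were all members, every list gene past the threshold, *EJ2* and *J2*, the lowest and highest of a list where needed, and the 3 list genes most like the B and the C and D members. *HYDRA*, *INO*, *TKN2*, *WUS*, *LS*, *FUL1* and the other green tissue IDs were added after their values were seen. List IDs were paired with genes from general knowledge. A gene is named only where the study pairs the name with the ID (*EJ2*) or where RefSeq has the symbol or synonym on the chromosome of the ID, which held for 21 of 38 list IDs and does not match IDs to genes. Replicate numbers do not pair the libraries. Alternatives were other pseudocounts and filters, rescaling, quantile normalization, no intensity trend, library weights, a replicate block, each library left out, and only *plt3* *plt7* libraries 1 and 3, since the study plots 2 samples of that genotype.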

Additional observations from a re-analysis of the deposited data

Results flagged for a closer look

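In 6 of 17 groups of 4 libraries examined, over the 8 members and the 6 other genes called, 1 library lay further from the rest than about 1 in 20 groups does by chance if values follow a normal distribution, which values near 0 do not. In 4 of them the library was *ej2* *j2* replicate 2: *TAP3* at 0.0691 TPM, Solyc08g067230 at 11.3 TPM, Solyc06g059970 at 2.22 TPM and *TAGL1* at 0.443 TPM. The others were *MBP3* in *ej2* *j2* replicate 1, at 0.193 TPM, and *AGL6* in *ej2* *j2* replicate 3, at 26.2 TPM. For *TAP3*, Solyc06g059970, *TAGL1* and *MBP3* the other 3 libraries of the genotype were listed at 0.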

How the results depend on the processing

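No member was called under any of the 18 alternatives to the analysis of all 8 libraries, including the replicate block (0 members, *TM6* adjusted p = 0.980 and 303 genes in all, limma). Only tested members could be called: 7 without a filter on low values, 1 with a minimum mean of 5 TPM or without *ej2* *j2* replicate 2, and 2 otherwise. Replicate numbers did not pair the libraries: deviations of same-numbered libraries correlated at -0.03 to 0.01. The log2 difference of *TM6* was -0.56 to 0.40 when each library was left out and 0.24 with only *plt3* *plt7* libraries 1 and 3 (adjusted p of at least 0.897 throughout, limma). That of Solyc08g067230 was between -0.93 and -0.40 wherever it was tested. It was not tested with a minimum mean of 5 TPM or without *ej2* *j2* replicate 2. Every fit that tested it thus held replicate 2, at 11.3 TPM, and the negative sign rests on that library. The other *ej2* *j2* libraries were at 0 to 0.535 TPM, within the 0 to 0.853 TPM of *plt3* *plt7*. In log2(TPM + 1) they were at 0.06, 0 and 0.62, against 0.53, 0.89, 0 and 0.60 in *plt3* *plt7*. Of these values the *plt3* *plt7* mean is the higher, a difference that was not tested. The count of members listed at 0 in *plt3* *plt7* and above 0 in *ej2* *j2*, 5, was 2 to 5 with each library left out, a check added after the data were seen. The number of genes called, 359, was 11 without a filter on low values, 229 with a minimum mean of 5 TPM, 131 without the intensity trend, 85 with only *plt3* *plt7* libraries 1 and 3 and 138 to 446 with each library left out. Of the 6 other named genes called, *AGL6* stayed so under all 18 alternatives, whereas *AN* lost its call under 9 of 17, *J2* under 8 of 18, *TM5* under 3 of 18, *TM29* under 2 of 18 and *EJ2* under 2 of 17. With only *plt3* *plt7* libraries 1 and 3, adjusted p was 0.0684 for *EJ2*, 0.189 for *J2*, 0.0935 for *TM5*, 0.106 for *TM29* and 0.254 for *AN* (limma). As TPM keeps no read numbers, levels near 0 cannot be given a detection limit.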
